A study of Mus musculus with 12 samples.

Results

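The 6 RNA-seq libraries described here are those labelled SIRT7-KO, a knockout of the sirtuin gene Sirt7, out of 12 libraries in the series: 3 taken at day 0 and 3 at day 7. They were chosen by genotype label and day in the tables of counts per gene and per transcript, and the question is what these cells gained and lost while they differentiated. All 12 libraries came from female embryonic stem (ES) cells of a C57BL6/CAST hybrid mouse strain, and the other 6, labelled WT, had the same days and 3 libraries a day. Up to day 0 the medium held LIF, leukaemia inhibitory factor, a cytokine that keeps mouse ES cells undifferentiated, and day 7 cells were collected 7 days after it was withdrawn. No group stayed in LIF for 7 days, so time in culture and loss of LIF cannot be told apart. The label for treatment follows the replicate number, not the day: knockout replicates 1 and 3 carry LIF and replicate 2 None on both days. It goes against the stated protocol and was not used for grouping. The labels do not say whether replicates were separate cultures or whether the knockout is a single clone, so p-values measure only the spread between these libraries.

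Mouse ES cells in LIF resemble the epiblast of the blastocyst and hold a naive network of transcription factors, among them Nanog, Esrrb and Pou5f1. When LIF is removed, FGF and ERK signalling carries the cells through a formative stage, after which Wnt, BMP and Nodal signals can direct them to primitive streak and mesoderm, and other cues to endoderm or neural fates. In female cells this exit is also the time at which the long RNA Xist coats and silences 1 of the X chromosomes. SIRT7 is a deacetylase of the nucleolus and chromatin.

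Sirt7 itself (chr11:120618372-120625240, minus strand, GRCm38) had 19.2, 23.8 and 16.9 CPM (counts per 1e+06 of library size, scaled for library composition) in the knockout libraries of day 0, and 25.1, 20.1 and 23.8 CPM at day 7. In WT libraries it had 12.7, 8.03 and 10.3 CPM at day 0 and 10.2, 10.6 and 15.3 CPM at day 7. Every library labelled knockout thus had a higher Sirt7 level in CPM than any WT library of its day. Which part of the gene was removed is not stated in the labels, so gene counts do not check the deletion, and the cells are called by their label throughout. In the knockout libraries the level of Sirt7 did not differ between days beyond its error (log2 change 0.21, SE 0.21, adjusted p = 0.414 by edgeR).

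The knockout libraries held 27231183 to 42802603 counts, of which mitochondrially encoded genes took 3.867 to 4.341% at day 0 and 3.222 to 3.603% at day 7. The summed level of 6 markers of undifferentiated ES cells was 4718 to 4881 CPM at day 0 and 319 to 329 CPM at day 7, so the day 0 label matched its markers. Markers of feeder fibroblasts summed to 28.1 to 31.1 CPM at day 0, with Col3a1 and Dcn at 0 in all 3 libraries. In bulk RNA, fewer cells of a type and less RNA per cell cannot be told apart.

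Most of the measured transcriptome moved over the 7 days. Of 19235 genes tested, 5980 rose (31.1%) and 6216 fell (32.3%) at an adjusted p of at most 0.05, together 12196 genes (63.4%), and the median change of all genes was -0.02 on the log2 scale. Large changes were as even: 2443 genes rose at least 4-fold (12.7%) and 2359 fell at least 4-fold (12.3%). The former took 1.28% ± 0.131 (SD, n = 3) of all counts at day 0 and 14.0% ± 0.190 at day 7, and the latter 6.63% ± 0.0494 and 0.752% ± 0.0117, which is a description, since the same values chose them. Against these background shares, the lists of fate, pathway and housekeeping genes are described below by how many of their tested members rose or fell. The libraries of the days did not overlap in 13375 of the 19235 genes tested. A lack of overlap, where given below, is thus common to most genes.

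**Figure D1:**
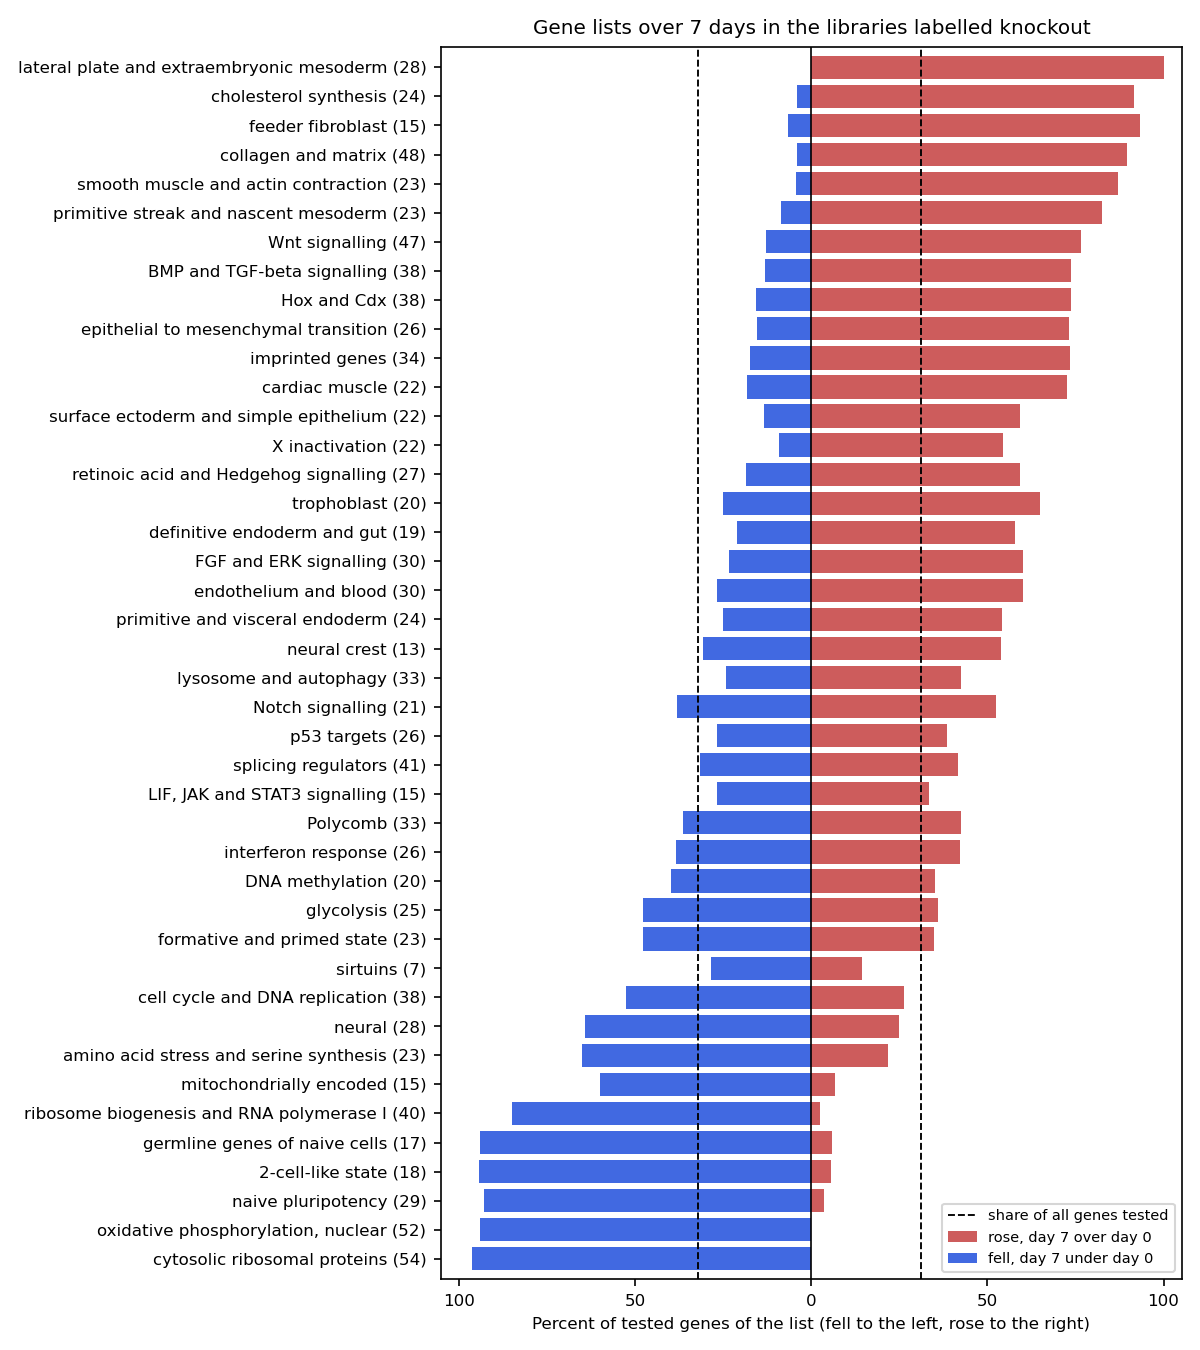
Bars give, for each gene list, the percent of tested genes (number in brackets) that rose to the right and fell to the left between day 0 and day 7 in the 6 knockout libraries, at an adjusted p of at most 0.05, with dashed lines at the shares of all genes tested (31.1% rose, 32.3% fell). All 28 lateral plate genes rose, while 52 of 54 ribosomal protein genes and 27 of 29 naive genes fell.

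The naive network was taken down almost completely. Of 29 naive pluripotency genes, 27 fell, 24 of them at least 4-fold, with a list median of -5.06 on the log2 scale. Nanog, the homeodomain factor that sustains self-renewal, had 936, 995 and 1121 CPM at day 0 and 31.4, 32.6 and 33.2 CPM at day 7, a log2 change of -4.97 (SE 0.08, adjusted p = 1.73e-11). Pou5f1, which encodes OCT4, had 2158, 2493 and 2405 CPM at day 0 and 160, 155 and 158 CPM at day 7 (log2 change -3.90, SE 0.08). The days stood far apart for both, yet Pou5f1 stayed above 150 CPM in every day 7 library. Zfp42 (REX1, a marker of the naive state) had 663, 493 and 494 CPM at day 0 and 1.06, 0.844 and 1.74 CPM at day 7 (log2 change -8.82, SE 0.40). Dppa5a had 1573, 1773 and 1780 CPM at day 0 and 12.5, 9.90 and 9.77 CPM at day 7 (log2 change -7.31, SE 0.14). Nr0b1, an orphan nuclear receptor of the network, fell by 9.18 (SE 0.46, or -9.95 without day 7 replicate 2) and Fgf4, the ES cells' own FGF ligand, by 7.15 (SE 0.22) on the log2 scale, and Tfcp2l1, another factor of the network, fell by 6.69. Sox2, which neural progenitors also use, had 435, 318 and 306 CPM at day 0 and 71.0, 68.1 and 73.4 CPM at day 7, a smaller fall of 2.32 (SE 0.14). The single member that rose was Lin28a, an RNA-binding protein that blocks let-7 processing, with 331, 371 and 376 CPM at day 0 and 567, 568 and 558 CPM at day 7 (log2 change 0.65, SE 0.06). Tbx3, which was chosen for mention after its values were seen, kept 167, 186 and 158 CPM at day 0 against 173, 169 and 180 CPM at day 7 (adjusted p = 0.818).

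Genes of the LIF, JAK and STAT3 pathway moved in both directions, 5 of 15 up and 4 down, near the shares of all genes. Jak1 and Jak2, the kinases of the receptor, rose by 0.91 (SE 0.15) and 3.09 on the log2 scale. Socs3, a feedback inhibitor that STAT3 switches on, had 103, 87.3 and 84.3 CPM at day 0 and 26.4, 26.6 and 30.3 CPM at day 7 (log2 change -1.72, SE 0.10), and Socs2 fell by 1.82. Socs1, another inhibitor of the family, rose by 1.54, so the feedback genes did not move as 1 group.

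Genes outside the naive list fell as far. Tdh, threonine dehydrogenase, an enzyme on which mouse ES cells depend, had 666, 674 and 652 CPM at day 0 and 3.68, 4.09 and 4.48 CPM at day 7 (log2 change -7.35, SE 0.19). Calcoco2, an autophagy receptor, had 402, 548 and 573 CPM at day 0 and 0.597, 0.372 and 0.419 CPM at day 7 (-10.06, SE 0.35). Nefh, a neurofilament subunit, fell by 8.18 (SE 0.25), Trap1a by 7.70 (SE 0.27) and Fbxo15, a target of OCT4 and SOX2, by 7.39 (SE 0.29, or -7.98 without day 7 replicate 1). In each of these 5 genes all day 7 libraries were below 5 CPM and all day 0 libraries above 150 CPM.

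Genes of meiosis and the germline, which naive ES cells also transcribe, were shut off as well. Of 17 such genes 16 fell, all 16 at least 4-fold, with a median of -6.01 and 4 genes with no count at day 7. Hormad1, a protein of the meiotic chromosome axis, had 22.9, 20.6 and 25.7 CPM at day 0 and no count in any day 7 library, so that it was at least 777-fold lower against a floor of 3 counts over the group. Morc1, which silences transposons in male germ cells, had 165, 158 and 193 CPM at day 0 and 0.0519, 0 and 0.0645 CPM at day 7. Tex19.1 had 61.3, 63.0 and 64.3 CPM at day 0 and 1.09, 0.946 and 0.871 CPM at day 7 (log2 change -6.01, SE 0.14). The exception was Tdrkh, a piRNA pathway protein, which rose by 2.0 on the log2 scale (2.63 without day 0 replicate 2).

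The promoters of this list are shown because most of them share a short sequence. CACGTG, the palindromic E-box that reads the same on both strands and a class of site that MYC, MAX and MGA can bind, was searched in the window from 250 bases before to 50 bases after each start in RefSeq promoters of GRCm38.p6. It was present in 9 of the 15 germline genes with a promoter in the table (60%), against 1384 of 12315 tested genes (11.2%). Of the other lists searched, it was in 20% of matched genes of the naive list, 23.8% of the Hox and Cdx list, 25% of the cholesterol list and 5.26% of the lateral plate list, and in none of 11 genes of the 2-cell list. The match is a description of sequence and not of binding. The stretches around the first match, upstream of the start, with CACGTG in capitals, are:
Ddx4 promoter, chr13:112652311-112652369, minus strand: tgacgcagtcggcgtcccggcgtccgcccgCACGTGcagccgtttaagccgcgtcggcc
Dnmt3l promoter, chr10:78049768-78049833, plus strand: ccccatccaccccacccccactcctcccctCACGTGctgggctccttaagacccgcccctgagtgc
Hormad1 promoter, chr3:95559590-95559655, plus strand: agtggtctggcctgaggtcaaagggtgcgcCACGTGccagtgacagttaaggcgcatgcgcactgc
Mael promoter, chr1:166238932-166238994, minus strand: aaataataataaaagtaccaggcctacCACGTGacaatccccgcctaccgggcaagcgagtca
Mov10l1 promoter, chr15:88982744-88982783, plus strand: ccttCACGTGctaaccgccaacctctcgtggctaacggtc
Stk31 promoter, chr6:49395454-49395519, plus strand: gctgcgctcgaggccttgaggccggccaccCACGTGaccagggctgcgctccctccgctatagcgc
Sycp1 promoter, chr3:102936159-102936224, minus strand: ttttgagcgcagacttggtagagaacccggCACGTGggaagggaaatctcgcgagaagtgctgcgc
Sycp3 promoter, chr10:88459493-88459558, plus strand: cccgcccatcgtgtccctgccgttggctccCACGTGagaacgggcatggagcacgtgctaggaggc
Taf7l promoter, chrX:134476504-134476569, minus strand: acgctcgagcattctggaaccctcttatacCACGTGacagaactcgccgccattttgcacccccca
Beside these sequences, the expression of all 9 genes fell. So did 16 of the 17 genes tested in the list, and the fall was therefore not particular to genes with the motif. The 9 genes are named because they hold the motif. Dnmt3l, the cofactor of de novo DNA methylation, had 224, 240 and 245 CPM at day 0 and 2.93, 4.09 and 4.55 CPM at day 7 (log2 change -5.94, SE 0.17). Ddx4, a helicase of germ cells, fell by 6.09 and Sycp3, of the synaptonemal complex, by 5.43.

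The rare 2-cell-like state that cycles within ES cultures also faded. Of 18 genes of that list 17 fell (median -4.55), including all 6 Zscan4 copies, whose close sequences make the reads of any single copy uncertain. Dppa2, a regulator of this state, had 225, 219 and 248 CPM at day 0 and 1.56, 1.69 and 0.806 CPM at day 7 (log2 change -7.41, SE 0.36), and Dppa4 fell by 5.79. The 1 member that rose was Gata2, which is also a blood and trophoblast factor (log2 change 2.0).

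Enzymes that write and erase DNA methylation changed in a mixed way, with 7 of 20 rising (35.0%) and 8 falling (40.0%). These shares were near those of all genes (31.1% and 32.3%). The oxidases exchanged places: Tet1 had 178, 140 and 159 CPM at day 0 and 17.9, 7.73 and 18.6 CPM at day 7 (log2 change -3.43, SE 0.29). Tet2 had 74.0, 74.0 and 76.0 CPM at day 0 and 4.10, 3.61 and 3.58 CPM at day 7 (-4.31, SE 0.42). Tet3 had 9.62, 9.99 and 9.04 CPM at day 0 and 37.2, 32.6 and 36.1 CPM at day 7 (1.89, SE 0.32). None of the 3 had overlapping groups. Dnmt1, the maintenance enzyme, rose by 0.47, its partner Uhrf1 fell by 0.80, and Dnmt3b, a de novo enzyme, did not pass (log2 change -0.24). Zfp57, a zinc-finger protein that protects imprinted methylation, had 116, 238 and 332 CPM at day 0 and 77.8, 28.3 and 26.3 CPM at day 7 (-2.37, SE 0.45, or -3.06 without day 7 replicate 1), a fall with wide spread on both days.

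Of 23 genes of the formative and primed stages 8 rose (34.8%) and 11 fell (47.8%), against 31.1% and 32.3% of all genes. Fgf5, the classical marker of primed epiblast, had 0.341, 0.227 and 0.169 CPM at day 0 and 28.1, 26.8 and 27.5 CPM at day 7 (log2 change 6.82, SE 0.41). Sox11, a SoxC transcription factor, had 2.56, 3.90 and 3.83 CPM at day 0 and 175, 170 and 172 CPM at day 7 (5.65, SE 0.21). Both were on in every day 7 library. In contrast Etv5, an ERK-responsive factor, had 371, 354 and 330 CPM at day 0 and 58.6, 61.3 and 61.3 CPM at day 7 (-2.54, SE 0.08), and Foxd3 fell by 7.17 (-8.04 without day 7 replicate 3). Lefty1 and Lefty2, secreted Nodal inhibitors, fell by 2.13 and 3.51, whereas Nodal did not pass (log2 change 0.13).

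Mesoderm was the clearest fate gained. Of 23 primitive streak genes 19 rose (median 4.04), of 28 lateral plate and extraembryonic mesoderm genes all 28 rose, 26 of them at least 4-fold (median 6.66, or 6.08 with the genes that had no day 0 count set at their bound). T, or Brachyury, the T-box factor of the streak, had 0.750, 0.416 and 0.337 CPM at day 0 and 158, 158 and 161 CPM at day 7 (log2 change 8.33, SE 0.23, adjusted p = 2.11e-10). Mixl1, a homeodomain factor of the streak, had 0.648, 0.908 and 0.747 CPM at day 0 and 74.3, 78.2 and 75.3 CPM at day 7 (6.63, SE 0.22). Eomes had 9.07, 9.54 and 10.4 CPM at day 0 and 121, 125 and 121 CPM at day 7 (3.65, SE 0.13). Streak genes were thus on at day 7 alongside genes of later mesoderm. Mesp2, a somite factor, and Lefty2 were the members that fell.

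Hand1, a basic helix-loop-helix factor of lateral plate, extraembryonic mesoderm and trophoblast, had 2.93, 2.99 and 2.67 CPM at day 0 and 1538, 1484 and 1502 CPM at day 7 (log2 change 9.04, SE 0.12). Msx1, a homeobox target of BMP signalling, had 0.443, 0.530 and 0.554 CPM at day 0 and 284, 263 and 282 CPM at day 7 (9.07, SE 0.28). Foxf1, a factor of splanchnic and extraembryonic mesoderm, had 0, 0.189 and 0.241 CPM at day 0 and 138, 126 and 129 CPM at day 7 (9.71, SE 0.59, or 10.45 without day 0 replicate 3). In all 3 the days stood apart by far more than the spread between libraries. Postn, the matrix protein periostin, had 0, 0 and 0.0482 CPM at day 0 and 93.3, 90.4 and 89.9 CPM at day 7. Pmp22, a membrane protein of myelin and of mesenchyme, had 2.45, 3.22 and 3.13 CPM at day 0 and 833, 645 and 803 CPM at day 7 (8.01, SE 0.17). Bmp4, a ligand that ES cells already express, had 41.8, 44.6 and 42.4 CPM at day 0 and 232, 213 and 228 CPM at day 7 (2.38, SE 0.16). Pdgfra rose by 7.09 and Tbx20 by 8.36 (9.04 without day 0 replicate 3) on the log2 scale.

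**Figure D2:**
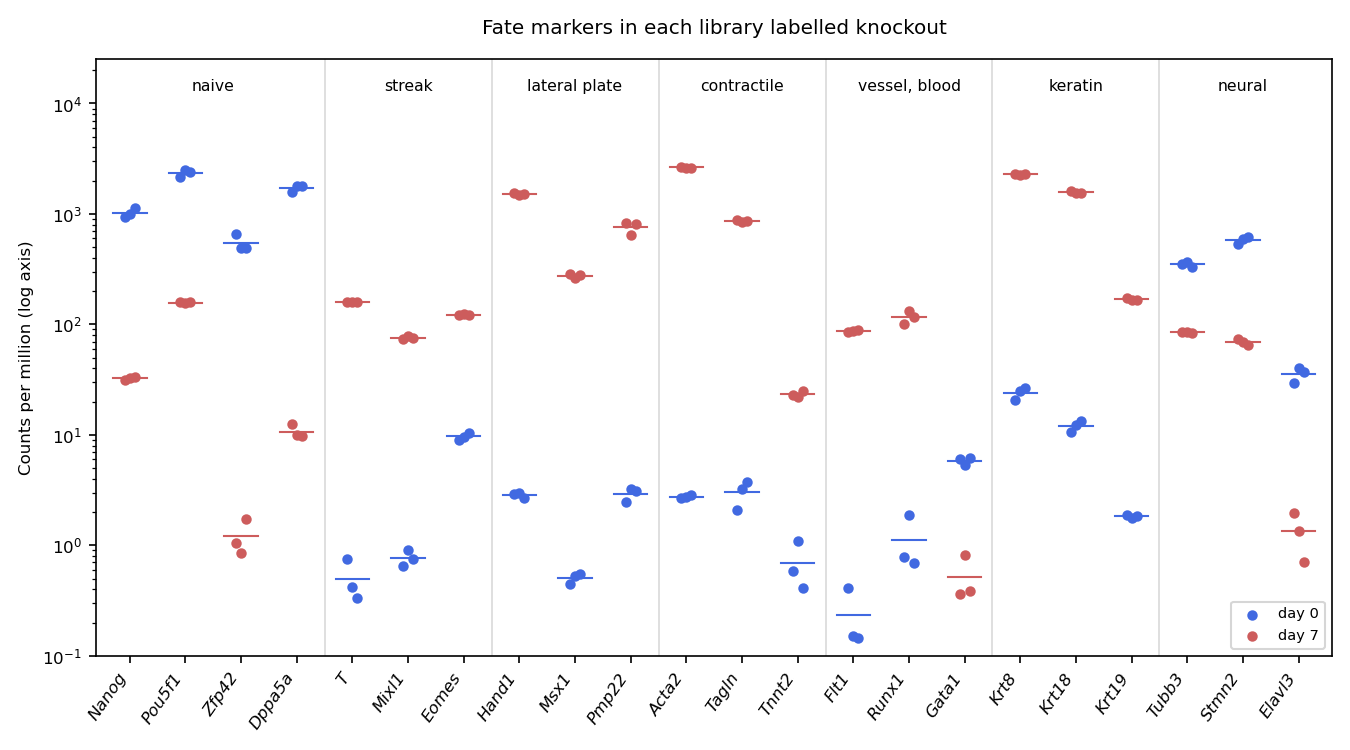
Each point is a knockout library and each bar the mean of 3, in CPM on a log axis, at day 0 and day 7 for markers grouped by fate. Nanog, Pou5f1, Zfp42 and Dppa5a fell in every library, T, Hand1, Acta2 and Krt8 rose from below 30 to above 150 CPM, and neural Tubb3 went from 331 to 369 CPM down to 82.9 to 86.0 CPM.

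Contractile genes followed. Of 23 smooth muscle and actin genes 20 rose (median 3.46), and the list took 0.153% ± 0.00314 of counts at day 0 and 1.32% ± 0.0101 at day 7 (exact permutation p = 0.1, the smallest that 3 against 3 libraries allow). Acta2, smooth muscle alpha-actin (chr19:34241090-34255590, minus strand), had 2.66, 2.76 and 2.84 CPM at day 0 and 2651, 2631 and 2623 CPM at day 7 (log2 change 9.90, SE 0.32). Tagln, transgelin, had 2.11, 3.22 and 3.71 CPM at day 0 and 884, 847 and 859 CPM at day 7 (8.15, SE 0.36). Tpm1, tropomyosin, had 70.6, 73.8 and 128 CPM at day 0 and 1600, 1621 and 1626 CPM at day 7 (4.15, SE 0.20). None of these 3 overlapped between days, and Des, the muscle intermediate filament desmin, was the member that fell (-1.23).

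The cardiac programme was uneven. Of 22 cardiac genes 16 rose and 4 fell (median 3.18, or 2.71 with bounds). Gata4, a zinc-finger factor of heart and endoderm, had 5.46, 4.28 and 3.88 CPM at day 0 and 101, 101 and 98.6 CPM at day 7 (log2 change 4.47, SE 0.14). Tnnt2, cardiac troponin T, had 0.580, 1.10 and 0.410 CPM at day 0 and 23.2, 22.0 and 24.8 CPM at day 7 (5.10, SE 0.35), and Tnnc1, troponin C, rose by 5.94 (SE 0.30). Nkx2-5, the cardiac homeobox factor, had 2.18, 2.27 and 2.29 CPM at day 0 and 9.34, 10.9 and 10 CPM at day 7 (2.16, SE 0.18). The 4 that fell were Myh6, Myl7, Ttn and Actn2 (adjusted p = 0.0175). The adjusted p of Actn2 was 0.0626 with the replicate block, 0.0653 without day 0 replicate 3 and 0.0682 without day 7 replicate 3. Myh6, a myosin heavy chain of the heart, had 4.47, 6.93 and 5.98 CPM at day 0 and 1.53, 1.01 and 2.10 CPM at day 7 (-1.90, SE 0.33). Among myosin light chains Myl7 fell by 1.83 (SE 0.21) while Myl4 rose by 1.57 (SE 0.22), and Ttn, the giant sarcomere protein titin, fell by 4.20 (SE 0.57, or -5.29 without day 7 replicate 1). The summed level of 4 cardiac markers was 15.0 to 19.9 CPM at day 0 and 36.6 to 39.1 CPM at day 7.

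Of 30 endothelial and blood genes 18 rose and 8 fell (median 1.98). Flt1, a VEGF receptor, had 0.409, 0.151 and 0.145 CPM at day 0 and 86.2, 86.6 and 88.4 CPM at day 7 (log2 change 8.55, SE 0.52, or 9.19 without day 0 replicate 1). Kdr, the receptor that marks the common progenitors, had 3.41, 2.80 and 1.83 CPM at day 0 and 40.2, 43.4 and 40.3 CPM at day 7 (3.95, SE 0.27). Runx1, the factor of definitive blood, had 0.784, 1.89 and 0.699 CPM at day 0 and 101, 133 and 117 CPM at day 7 (6.74, SE 0.33). Receptors and Runx1 rose without overlap, while other members fell. Gata1, the erythroid factor, had 6.10, 5.30 and 6.12 CPM at day 0 and 0.363, 0.811 and 0.387 CPM at day 7 (-3.50, SE 0.34). Cd34, a surface marker of both lineages, fell by 3.98 (SE 0.36), Sox7 by 3.03 and Eng, endoglin, by 2.88 (SE 0.19).

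Epithelial and trophoblast genes rose in part. Of 20 trophoblast genes 13 rose and 5 fell (median 2.42), and of 22 genes of surface ectoderm and simple epithelium 13 rose and 3 fell (median 1.63). Krt8 and Krt18, the paired keratins of simple epithelia, were in both lists: Krt8 had 20.9, 24.8 and 26.3 CPM at day 0 and 2317, 2232 and 2287 CPM at day 7 (log2 change 6.57, SE 0.17). Krt18 had 10.7, 12.3 and 13.4 CPM at day 0 and 1603, 1541 and 1549 CPM at day 7 (7.01, SE 0.14), and Krt19 rose by 6.53 (SE 0.13). The keratins showed no overlap between days. Cdx2, a trophoblast and posterior embryo factor chosen for mention after its values were seen, had 0.136, 0 and 0.145 CPM at day 0 and 68.9, 66.6 and 61.8 CPM at day 7 (9.29, SE 0.35). The 5 trophoblast markers summed to 3.72 to 5.83 CPM at day 0 and 106 to 116 CPM at day 7. Of them Tpbpa and Prl3d1 had no count on either day. Tfap2c, another gene of the list, fell by 1.65. Rhox6, a placental homeobox gene on the X chromosome, had 8.08, 12.4 and 12.6 CPM at day 0 and 0.104, 0.0675 and 0.129 CPM at day 7 (-6.73, SE 0.52).

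Endoderm lists were mixed. Of 19 definitive endoderm and gut genes 11 rose and 4 fell (median 1.70), and of 24 primitive and visceral endoderm genes 13 rose and 6 fell (median 0.96, or 2.41 without day 0 replicate 1). Cxcr4, a chemokine receptor of endoderm and mesoderm, had 1.30, 0.454 and 1.06 CPM at day 0 and 56.2, 52.7 and 59.1 CPM at day 7 (log2 change 5.88, SE 0.36). Dab2, an endocytic adaptor of visceral endoderm, rose by 6.94 (SE 0.24). Other members went down: Hnf4a, a nuclear receptor of liver and yolk sac, fell by 1.87, Sox7 by 3.03 and Trh by 3.70, and Afp, the yolk sac protein alpha-fetoprotein, had no count in any of the 6 libraries. Several risers of both lists, such as Gata4 and Pdgfra, are also mesoderm genes.

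Most neural genes fell, against this trend. Of 28 tested, 18 fell and 7 rose (median -1.89), and 4 neural markers summed to 351 to 390 CPM at day 0 and 83.2 to 86.4 CPM at day 7. Nearly all of that sum was Tubb3 on both days. Tubb3, neuronal beta-tubulin, had 351, 369 and 331 CPM at day 0 and 85.2, 86.0 and 82.9 CPM at day 7 (log2 change -2.05, SE 0.09). Stmn2, a tubulin-binding growth cone protein, had 530, 595 and 620 CPM at day 0 and 74.4, 69.6 and 64.5 CPM at day 7 (-3.06, SE 0.09). Elavl3, a neuronal RNA-binding protein, had 29.5, 40.4 and 36.9 CPM at day 0 and 1.95, 1.35 and 0.710 CPM at day 7 (-4.72, SE 0.32). These genes were thus highest in the undifferentiated cells. Nes, the intermediate filament nestin that mesoderm also uses, had 19.4, 22.1 and 1.98 CPM at day 0 and 172, 163 and 178 CPM at day 7 (3.57, SE 0.61), with day 0 replicate 3 far below the other two. Nkx6-1, a ventral neural tube and pancreas factor, rose by 7.00 (SE 0.72, or 8.09 without day 0 replicate 3). Zic1, Fabp7 and Irx3 rose by 8.31, 7.37 and 4.36. Pax7 rose by 6.63 (adjusted p = 0.0299 by edgeR, and 0.0725 without day 0 replicate 3). All 7 risers changed at least 4-fold, as did 14 of the 18 genes that fell. Sox2 and Gbx2, which fell, were counted in the naive list too. In the neural crest list 7 of 13 rose (53.8%) and 4 fell (30.8%), against 31.1% and 32.3% of all genes. Ets1 rose by 7.52 and Mitf, the pigment cell factor, fell by 3.53.

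Hox and Cdx genes, which give cells their place along the body axis, mostly came on. Of 38 Hox and Cdx genes 28 rose and 6 fell (median 3.61). Hoxb6 had no count at day 0 and 37.6, 39.6 and 41.3 CPM at day 7, at least 1276-fold higher against the floor. Hoxb2 had 0.136, 0.303 and 0.0964 CPM at day 0 and 60.7, 61.4 and 56.1 CPM at day 7 (log2 change 8.44, SE 0.43). The 6 that fell were Cdx4, Hoxa7, Hoxb13 (adjusted p = 0.0432, and 0.176 without both libraries of replicate 2), Hoxc12, Hoxc13 and Hoxd13, of which 4 lie at the 5′ ends of their clusters. Hoxc13 had 4.16, 6.09 and 6.58 CPM at day 0 and 1.09, 0.912 and 0.645 CPM at day 7 (-2.66, SE 0.33); Hoxa13, at such an end too and chosen after its values were seen, rose by 3.01. Cdx4, which neighbours Xist on the X chromosome, fell by 1.69.

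Wnt signalling genes rose broadly, in 36 of 47 tested, with 6 down (median 3.0). Among ligands, Wnt5a, of the planar polarity branch, had 0.784, 0.757 and 0.530 CPM at day 0 and 148, 106 and 114 CPM at day 7 (log2 change 7.49, SE 0.42). Wnt4 had 1.13, 2.04 and 1.08 CPM at day 0 and 165, 152 and 167 CPM at day 7 (6.85, SE 0.26), and Wnt3, the ligand of the streak, rose by 6.89. Ligands of both branches were thus off at day 0 and on at day 7. Among receptors Fzd4 rose by 6.04 while Fzd5 had 59.9, 45.1 and 40.1 CPM at day 0 and 4.12, 3.38 and 4.26 CPM at day 7 (-3.62, SE 0.22). Nkd1, a feedback target of beta-catenin, had 0.818, 2.88 and 2.22 CPM at day 0 and 132, 130 and 127 CPM at day 7 (6.04, SE 0.36), and Lef1, the nuclear partner of beta-catenin, rose by 4.67 (SE 0.16). Secreted inhibitors divided: Dkk1 had 0.102, 0 and 0 CPM at day 0 and 36.1, 38.0 and 40.2 CPM at day 7, whereas Sfrp1 had 94.3, 104 and 99.4 CPM at day 0 and 8.87, 8.48 and 7.39 CPM at day 7 (-3.59, SE 0.17). Sfrp5 fell by 6.07 and the lipase Notum by 2.38.

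In the BMP and TGF-beta pathway 28 of 38 genes rose and 5 fell (median 1.84). Bmp2 had 0.341, 0.227 and 0 CPM at day 0 and 96.5, 91.3 and 100 CPM at day 7 (log2 change 9.12, SE 0.50; 10.01 and 8.37 without day 0 replicates 1 and 3), and Tgfb2, a ligand of the epithelial to mesenchymal change, had 0.239, 0.379 and 0.458 CPM at day 0 and 147, 152 and 148 CPM at day 7 (8.65, SE 0.27). Targets and feedback inhibitors rose with the ligands: Id3 had 35.0, 41.5 and 38.8 CPM at day 0 and 213, 206 and 219 CPM at day 7 (2.47, SE 0.13), and Smad6 had 16.3, 17.0 and 13.3 CPM at day 0 and 230, 223 and 232 CPM at day 7 (3.88, SE 0.14). The 5 that fell were Lefty1, Lefty2 and Tdgf1, all of the Nodal branch, with Bmp6 (-0.73) and Id4 (-1.02). Tdgf1, the Nodal coreceptor CRIPTO, fell by 2.32.

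FGF ligands changed identity, with 18 of 30 pathway genes up and 7 down (median 1.18). Fgf4 had 231, 241 and 246 CPM at day 0 and 1.95, 1.82 and 1.26 CPM at day 7, and Fgf17 had 78.1, 90.0 and 85.2 CPM at day 0 and 6.04, 5.71 and 5.55 CPM at day 7 (log2 change -3.87, SE 0.16). Fgf5 and Fgf8, a ligand of the gastrulating streak, rose by 6.82 and 5.22. Fgfr1 had 165, 162 and 141 CPM at day 0 and 500, 512 and 512 CPM at day 7 (1.70, SE 0.08). Of the ERK feedback genes, the phosphatases Dusp4 and Dusp6 rose by 3.43 and 3.57, and Spry4 fell by 2.31.

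Of 21 Notch pathway genes 11 rose (52.4%) and 8 fell (38.1%), against 31.1% and 32.3% of all genes. Among the receptors, Notch2 rose by 1.86. Notch3, the receptor of smooth muscle and pericytes, had 29.5, 27.6 and 27.8 CPM at day 0 and 377, 359 and 378 CPM at day 7 (log2 change 3.71, SE 0.12). Notch4, the endothelial receptor, had 36.5, 31.6 and 26.7 CPM at day 0 and 1.71, 0.709 and 0.645 CPM at day 7 (-4.92, SE 0.63, or -5.53 without day 7 replicate 1). Of 27 retinoic acid and Hedgehog genes 16 rose and 5 fell (median 1.88). Cyp26a1, the enzyme that degrades retinoic acid, had 0.273, 0.492 and 0.145 CPM at day 0 and 59.1, 54.0 and 55.6 CPM at day 7 (7.60, SE 0.44). In the Hedgehog branch the direct target Gli1 had 37.7, 37.9 and 35.3 CPM at day 0 and 3.63, 2.90 and 2.81 CPM at day 7 (-3.57, SE 0.16). Gli3, which can act as a repressor, had 7.26, 6.85 and 8.31 CPM at day 0 and 84.5, 86.5 and 83.4 CPM at day 7 (3.50, SE 0.11). Hhip, a decoy receptor and target, fell by 3.10.

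Genes of the epithelial to mesenchymal transition rose in 19 of 26 cases and fell in 4 (median 2.15). Cdh2, N-cadherin, had 6.65, 5.03 and 2.41 CPM at day 0 and 333, 325 and 331 CPM at day 7 (log2 change 6.15, SE 0.32), and Cdh11, a mesenchymal cadherin, had 0.546, 0.265 and 0.337 CPM at day 0 and 375, 372 and 386 CPM at day 7 (9.94, SE 0.27). Cdh1, E-cadherin, had 319, 223 and 242 CPM at day 0 and 218, 216 and 220 CPM at day 7, which did not pass (-0.26, SE 0.12, adjusted p = 0.0749) though the groups did not overlap. Snai1, a repressor of Cdh1, had 7.13, 10.2 and 4.87 CPM at day 0 and 88.5, 83.2 and 83.9 CPM at day 7 (3.53, SE 0.22). Vim, vimentin, had 250, 276 and 351 CPM at day 0 and 1522, 1516 and 1516 CPM at day 7 (2.37, SE 0.16), while Epcam, an epithelial adhesion protein, fell by only 0.74 and Cldn3 by 2.43.

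Extracellular matrix rose alongside, in 43 of 48 genes with 2 down (median 3.67), and went from 0.252% ± 0.0367 to 1.08% ± 0.0509 of counts. Col1a1 had 2.66, 5.38 and 3.04 CPM at day 0 and 872, 877 and 908 CPM at day 7 (log2 change 7.92, SE 0.25). Fn1, fibronectin, had 384, 257 and 267 CPM at day 0 and 1712, 1682 and 1679 CPM at day 7 (2.48, SE 0.20), and the basement membrane genes Col4a1 and Col4a2 rose by 3.39 (4.10 without day 0 replicate 1) and 3.63. The members that fell were Timp1, a protease inhibitor on the X chromosome, with 92.9, 116 and 120 CPM at day 0 and 16.2, 15.0 and 13.2 CPM at day 7 (-2.89, SE 0.13), and Col18a1 (-1.13). Markers of feeder fibroblasts, several of which are matrix genes, rose in 14 of 15 cases, and their 7 fixed markers summed to 1051 to 1083 CPM at day 7. Thy1, the fibroblast surface marker that ES cells share, fell by 2.54, and the part of fibroblasts in the matrix result was not tested.

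Growth genes went down together by small amounts. Of 54 cytosolic ribosomal protein genes 52 fell and none rose (median -0.98), and their share of counts was 8.20% ± 0.902 at day 0 and 4.40% ± 0.0155 at day 7. Rps4x, on the X chromosome, had 3474, 4090 and 4521 CPM at day 0 and 1307, 1289 and 1292 CPM at day 7 (log2 change -1.64, SE 0.09). Pseudogene copies make reads of single ribosomal protein genes uncertain. Of 40 genes of ribosome biogenesis and RNA polymerase I, the machinery in which SIRT7 is known to act, 34 fell (median -0.75) and 1, Rrs1, rose by 0.44 (adjusted p = 0.0325, and 0.0927 without both libraries of replicate 2). In WT the median of this list was -0.69, and that of the ribosomal protein list -0.88. No gene of either list passed the test of the difference between the labels, given below. Dkc1, the pseudouridine synthase dyskerin, had 368, 387 and 420 CPM at day 0 and 98.3, 92.0 and 93.8 CPM at day 7 (-2.05, SE 0.07), the nucleolar proteins Ncl and Npm1 fell by 0.86 and 0.79, and Polr1b, a core subunit of the polymerase, by 1.26.

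Respiration genes fell as evenly. Of 52 nuclear genes of oxidative phosphorylation 49 fell and none rose (median -0.60), and of 15 mitochondrially encoded genes 9 fell and 1, mt-Nd4l, rose by 0.57 (adjusted p = 0.00509, and 0.0620 without both libraries of replicate 2). Atp5g1, a subunit of the ATP synthase rotor, had 233, 330 and 291 CPM at day 0 and 73.5, 70.0 and 74.3 CPM at day 7 (log2 change -1.97, SE 0.11), and Cox7b, of cytochrome oxidase, fell by 1.72 (SE 0.08). Glucose handling changed more by gene than as a list, with 9 of 25 glycolysis genes up (36.0%) and 12 down (48.0%). Of all genes, 31.1% rose and 32.3% fell. Slc2a1, the glucose transporter GLUT1, had 397, 356 and 358 CPM at day 0 and 2606, 2616 and 2595 CPM at day 7 (2.81, SE 0.07). Slc2a3 (GLUT3) had 98.5, 35.1 and 60.4 CPM at day 0 and 164, 916 and 898 CPM at day 7 (3.35, SE 0.57, or 2.74 without both libraries of replicate 2), with day 7 replicate 1 well below the other two. Pfkp, a phosphofructokinase, had 202, 148 and 164 CPM at day 0 and 29.4, 24.3 and 23.9 CPM at day 7 (-2.73, SE 0.19).

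**Figure D3:**
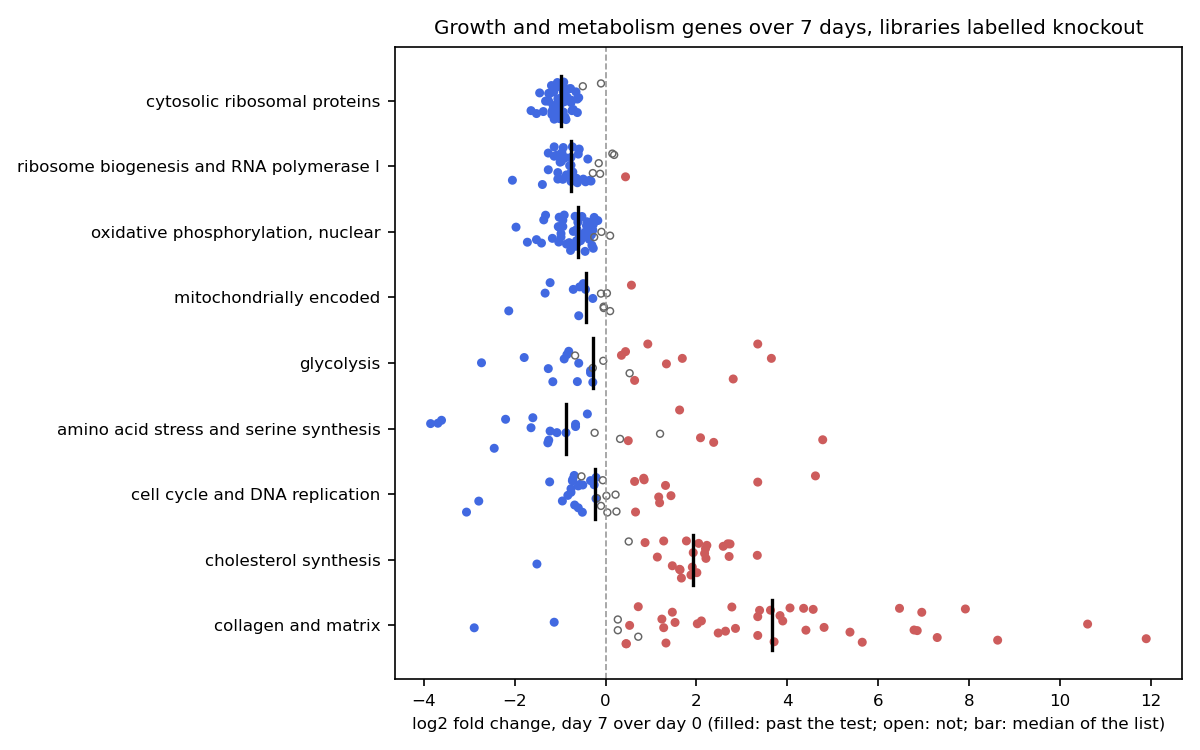
Each point is a gene's log2 change from day 0 to day 7 in the knockout libraries, filled where it passed the test and open where it did not, with black bars at the list medians; genes with no count on a day are not drawn. Ribosomal protein genes lie around -0.98 and respiratory genes around -0.60, whereas cholesterol synthesis genes lie around 1.92.

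Cholesterol synthesis stood opposite to the other metabolic lists. Of its 24 genes 22 rose and 1 fell (median 1.92). Hmgcs1, which makes the precursor of mevalonate, had 97.0, 63.3 and 70.4 CPM at day 0 and 461, 456 and 468 CPM at day 7 (log2 change 2.59, SE 0.16), Lss and Cyp51, of the sterol ring, rose by 2.72 and 2.74, and Srebf2, the factor that drives the pathway, by 1.64. The member that fell was Ebp, a sterol isomerase on the X chromosome, with 85.9, 90.2 and 96.5 CPM at day 0 and 31.9, 29.7 and 33.8 CPM at day 7 (-1.51, SE 0.09). Of 23 genes of the amino acid stress response and serine synthesis 15 fell and 5 rose (median -0.87). Asns, asparagine synthetase, had 485, 526 and 551 CPM at day 0 and 116, 115 and 108 CPM at day 7 (-2.20, SE 0.07), and Chac1, which degrades glutathione, fell by 3.69 (SE 0.35). Vldlr, a lipoprotein receptor, went in the other direction (4.78, SE 0.19).

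Cell cycle genes changed in composition: 20 of 38 fell and 10 rose (median -0.23). Ccne1, the cyclin E that naive cells keep high, had 373, 381 and 381 CPM at day 0 and 55.8, 56.8 and 51.9 CPM at day 7 (log2 change -2.79, SE 0.07). Ccnd2, a D-type cyclin, had 3.61, 4.01 and 2.34 CPM at day 0 and 83.8, 78.7 and 81.3 CPM at day 7 (4.62, SE 0.21). Not all D-type cyclins rose: Ccnd3 had 585, 682 and 604 CPM at day 0 and 274, 257 and 266 CPM at day 7 (-1.23, SE 0.08), and Mcm5, of the replicative helicase, fell by 0.69. Cdkn1a, the p21 inhibitor, had 69.8, 84.4 and 57.1 CPM at day 0 and 209, 123 and 195 CPM at day 7 (1.32, SE 0.19), while Trp53, which drives it, had 864, 1002 and 910 CPM at day 0 and 374, 389 and 365 CPM at day 7 (-1.30, SE 0.08). Of 26 p53 targets 10 rose and 7 fell, close to the shares of all genes.

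Imprinted genes rose as a group, in 25 of 34 cases with 6 down (median 1.89), and went from 0.158% ± 0.00483 to 1.5% ± 0.121 of counts. Igf2, the fetal growth factor (chr7:142650766-142666816, minus strand), had 0.375, 0.265 and 0.0964 CPM at day 0 and 715, 444 and 727 CPM at day 7 (log2 change 11.40, SE 0.55). H19, the long RNA of the same domain, had 18.7, 22.5 and 9.18 CPM at day 0 and 1703, 1532 and 1735 CPM at day 7 (6.63, SE 0.49). Mest had 110, 84.0 and 83.7 CPM at day 0 and 3313, 3487 and 3504 CPM at day 7 (5.22, SE 0.12), and Peg10, a retroviral-like gene of the placenta, 231, 295 and 256 CPM at day 0 and 3269, 3406 and 3276 CPM at day 7 (3.67, SE 0.10). None of these 4 overlapped between days. Peg3 was uneven between replicates, with 1.06, 23.7 and 24.2 CPM at day 0 and 249, 246 and 1994 CPM at day 7 (5.66, SE 1.54, or 3.92 without day 7 replicate 3). Grb10, an inhibitor of growth factor receptors, had 18.5, 18.3 and 15.0 CPM at day 0 and 2.20, 1.59 and 1.26 CPM at day 7 (-3.35, SE 0.24), and Kcnq1ot1, an imprinting RNA, fell by 1.08.

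The X chromosome as a whole went down as Xist went up. Xist had 37.5, 42.2 and 44.3 CPM at day 0 and 416, 441 and 434 CPM at day 7 (log2 change 3.38, SE 0.12). Tsix, its antisense partner, had 29.5, 3.10 and 64.6 CPM at day 0 and 0.441, 0.540 and 0.613 CPM at day 7 (-5.93, SE 1.01, or -4.94 without day 0 replicate 3). Counting by strand is not given in the sources used here, so reads of the pair cannot be told apart where they overlap. Of 768 X-linked genes tested 331 fell (43.1%) and 176 rose (22.9%), with a median of -0.48, against 31.8% and 31.5% of 18413 autosomal genes and a median of -0.00. Among genes with a mean log2 CPM of at least 3 the medians were -0.50 (325 genes) and 0.06 (9097 genes). Of 22 genes of X inactivation 12 rose and 2 fell, Tsix and Cdx4. Among them Smchd1, needed to keep the X silent, rose by 1.38, and Hnrnpu and Hnrnpk, which bind Xist, did not pass.

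Polycomb genes divided evenly, with 14 of 33 up and 12 down, against 31.1% and 32.3% of all genes. Epop, a cofactor of PRC2 in ES cells, had 1719, 2266 and 1829 CPM at day 0 and 93.6, 92.4 and 92.1 CPM at day 7 (log2 change -4.39, SE 0.12), and Jarid2 fell by 2.32. Cbx7, the chromobox of PRC1 in ES cells, had 199, 182 and 168 CPM at day 0 and 24.0, 21.8 and 21.1 CPM at day 7 (-3.04, SE 0.12), while Pcgf5, also of PRC1, had 2.76, 1.78 and 4.80 CPM at day 0 and 50.2, 47.9 and 47.2 CPM at day 7 (3.94, SE 0.30), and Phc2, another subunit of PRC1, rose by 2.04. Of the 7 sirtuins Sirt2 rose (1.33, SE 0.26) and Sirt5 and Sirt6 fell (-1.48 and -1.20).

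Some lists held members that moved in both directions. Against 31.1% of all genes up and 32.3% down, the interferon list had 42.3% and 38.5%, and the lysosome and autophagy list 42.4% and 24.2%. In the interferon response 11 of 26 rose and 10 fell: Ifitm3, a membrane protein that ES cells express, had 467, 617 and 609 CPM at day 0 and 78.0, 76.0 and 81.8 CPM at day 7 (log2 change -2.84, SE 0.11), and Oas1a fell by 6.05 (SE 0.35), whereas B2m, the light chain of MHC class I, had 6.14, 7.00 and 8.05 CPM at day 0 and 53.5, 60.2 and 62.1 CPM at day 7 (3.05, SE 0.21). In the lysosome and autophagy list 14 of 33 rose and 8 fell, and Tfeb, its master regulator, had 79.8, 104 and 73.8 CPM at day 0 and 7.08, 4.66 and 10.6 CPM at day 7 (-3.52, SE 0.29).

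Some genes went from no count to many or the reverse: 414 genes with no count at day 0 rose and 594 with no count at day 7 fell. Svep1, a large adhesion protein of mesenchyme and lymphatic vessels, had 90.0, 85.3 and 89.7 CPM at day 7, at least 2869-fold higher. Sprr2a2, a proline-rich protein of cornified epithelia from a family with close copies, had 72.0, 70.4 and 68.0 CPM (at least 2277-fold), and Fat4, a protocadherin of planar polarity, 66.8, 62.6 and 62.2 CPM (at least 2078-fold). In the other direction Serpinb6c, a protease inhibitor, had 70.3, 72.6 and 75.2 CPM at day 0 and none at day 7, at least 2414-fold lower, and Mcf2, a guanine nucleotide exchange factor, was at least 1132-fold lower.

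Whether these changes were particular to the knockout label was tested in the same edgeR fit, by subtracting the WT change from the knockout change. It passed for 5 of 19235 genes (0.0260%), with 1319 genes at an unadjusted p under 0.05. Esrrb, the nuclear receptor of the naive network, had 205, 315 and 173 CPM at day 0 and 2.26, 2.26 and 2.58 CPM at day 7 in knockout, against 54.5, 38.5 and 38.5 CPM and 3.51, 3.74 and 2.86 CPM in WT. The log2 change was -6.61 (SE 0.27) in knockout and -3.69 (SE 0.24) in WT, a difference of -2.92 (SE 0.32, adjusted p = 0.0152), and the day 0 libraries of the labels did not overlap. Epha4, an ephrin receptor of axon guidance, had 50.2, 34.7 and 32.0 CPM at day 0 and 49.7, 53.5 and 46.0 CPM at day 7 in knockout, against 9.63, 9.93 and 8.44 CPM and 44.1, 56.3 and 47.7 CPM in WT (difference -2.05, SE 0.24, adjusted p = 0.0152). Both genes were higher in knockout than in WT in every day 0 library, while at day 7 Epha4 overlapped between the labels and Esrrb was lower in knockout.

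The other three differed at their lowest levels. Morc1 had 0.0519, 0 and 0.0645 CPM in knockout at day 7 against 0.532, 0.757 and 0.542 CPM in WT, from overlapping day 0 levels (difference -3.99, SE 0.46, adjusted p = 0.0152). Aoah, an enzyme that inactivates bacterial endotoxin, had no count in knockout at day 7 against 0.208, 0.238 and 0.232 CPM in WT, and Ankrd45 had none against 0.277, 0.386 and 0.542 CPM. The fitted differences of -6.20 and -6.65 (adjusted p = 0.0152 and 0.0301) have no fixed size, since they rest on a group without counts, and the WT totals were 31 and 52 counts. No gene passed in edgeR without day 7 replicate 3 of knockout (1187 genes at an unadjusted p under 0.05), and DESeq2 on all libraries called 145 genes.

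**Figure D4:**
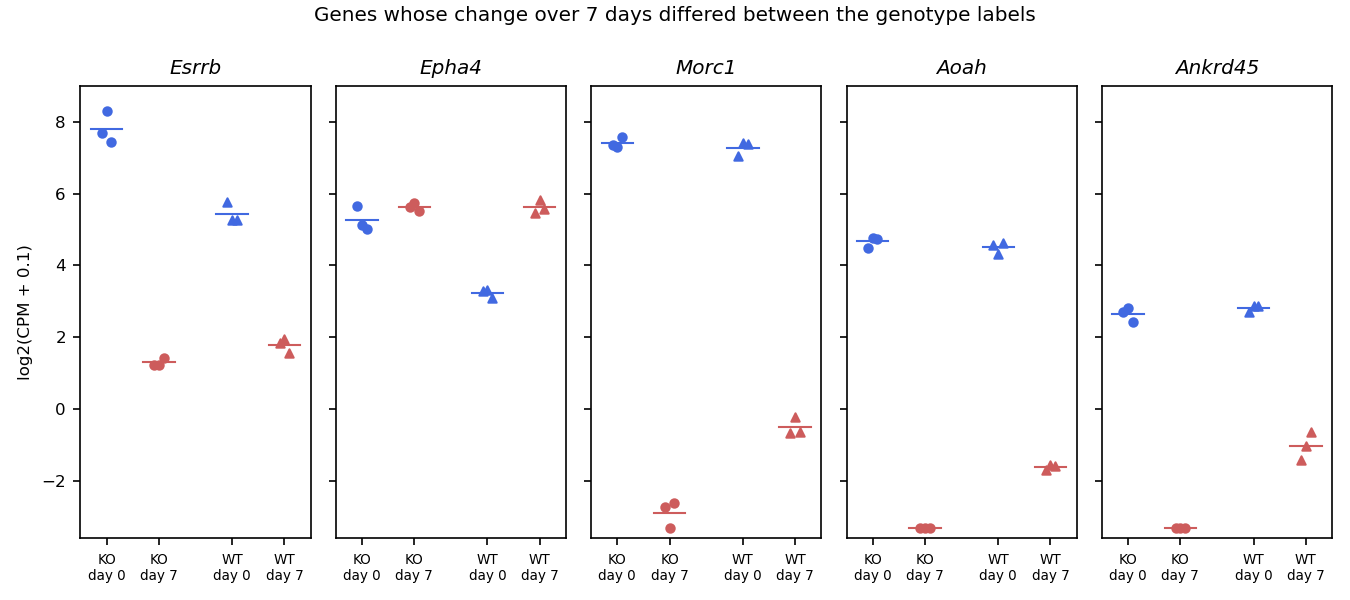
Points are libraries, circles knockout (KO) and triangles wild type (WT), at day 0 and day 7, as log2 of CPM plus 0.1, with bars at group means. Esrrb and Epha4 differ between labels at day 0, where Esrrb spans 173 to 315 CPM in knockout and 38.5 to 54.5 CPM in WT, and Morc1, Aoah and Ankrd45 differ at day 7 below 1 CPM.

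The form in which genes were read also changed. Of 45908 transcripts tested, 4859 rose (10.6%) and 4768 fell (10.4%). In a test of the share of each transcript within its gene, 686 of 27542 transcripts passed (2.49%), in 548 of 7858 genes (6.97%). This test alone called too many genes on simulated data. The count of genes was 229 with the replicate block and 1335 by limma. A switch was called where 1 form lost and another gained at least 20 percentage points of the gene's counts, both past the test and with no overlap between days in the knockout libraries, in genes of at least 10 CPM on each day, which left 22 genes (0.280% of those tested). In 17 both forms were coding, in 6 the coding sequence was the same, and in 16 the gained form had no count at day 0. In the WT libraries, which the test did not use, both forms moved in the same direction without overlap between days in 10 of the 22: Arhgap17, Cald1, Epb41l3, Fnbp1l, Grik5, Inppl1, Jade1, Tns3, Zfhx3 and Zmynd8. How often the shares of all transcripts tested stood apart in WT was not counted, so the 10 are a description. In Tns3 the gained form reached only 3.98, 2.80 and 1.66% in WT at day 7, against 17.0, 96.1 and 98.0% in knockout, and its switch was called in 3 of 9 settings.

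Shares of forms that have most bases in common are estimates that can flip from nearly all to none between libraries. Ipo4, an importin, had 97.3, 95.9 and 91.9% of its counts in the coding form Ipo4-201 at day 0 and 0% in all 3 at day 7, but WT libraries of day 0 had 97.3, 96.5 and 10.8%. Taok1, a kinase whose forms have the same coding sequence, had 100% of counts in Taok1-202 at day 0 and 1.57, 1.96 and 1.84% at day 7, against 99.6, 4.75 and 100% in WT at day 7. The 12 genes, Ipo4 and Taok1 included, whose shares overlapped in WT in at least 1 form, are Adk, Ambra1, Ankrd17, Clcn7, Fgfr1, Igsf9, Ipo4, Nrd1, Sparc, Syt11, Taok1 and Ttc17.

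Cald1, caldesmon, which binds actin and calmodulin, changed its first coding exon while the gene rose by 5.14 on the log2 scale. The switch was called in only 4 of 9 alternative settings, and not when any day 7 library was left out. Cald1-203 had 36.0, 95.8 and 82.3% of its counts at day 0 and 2.85, 2.91 and 2.96% at day 7. Cald1-204 had none at day 0 and 89.5, 91.0 and 89.6% at day 7, and WT went from 3.77% to 88.9% on average. The start exons are shown, from GENCODE M21 transcripts on GRCm38, because the forms differ in the amino end they encode; capitals are the coding bases found in that form only, and lower case the next 20 bases of the transcript:
Cald1-203 53 bases, chr6:34709645-34709697, plus strand: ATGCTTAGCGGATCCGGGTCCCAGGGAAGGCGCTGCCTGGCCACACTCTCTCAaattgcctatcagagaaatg
Cald1-204 71 bases, chr6:34686004-34686074, plus strand: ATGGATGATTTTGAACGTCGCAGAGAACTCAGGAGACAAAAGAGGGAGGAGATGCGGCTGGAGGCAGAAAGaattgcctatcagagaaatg
The exon of Cald1-204 lies upstream of that of Cald1-203 on the plus strand, and both join the same next exon.

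Fgfr2, a receptor of FGF ligands, carries an exon known as IIIb that is used in epithelial cells and helps to set which ligands bind. Fgfr2 did not meet the switch rule, and its exon was chosen for display after its values were seen. Form Fgfr2-211, which holds the exon, lost 75.8 points. The exon is shown in capitals, with 20 bases of the transcript on each side in lower case, in transcript direction:
Fgfr2-211 148 bases, chr7:130199758-130199905, minus strand: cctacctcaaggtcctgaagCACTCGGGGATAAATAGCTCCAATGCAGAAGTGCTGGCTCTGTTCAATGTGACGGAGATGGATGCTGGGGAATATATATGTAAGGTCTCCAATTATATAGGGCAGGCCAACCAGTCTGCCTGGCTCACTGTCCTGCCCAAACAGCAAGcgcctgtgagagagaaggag
This 148-base exon was held by 67.5, 96.0 and 94.5% of the counts of forms spanning it at day 0 and by 1.31, 1.28 and 1.73% at day 7. It was thus lost in every day 7 library, with no overlap, and day 0 replicate 1 was lower than the other two of its day. WT means were 97.1% at day 0 and 1.20% at day 7. Fgfr2 itself rose, from 18, 18.3 and 20.8 CPM to 101, 108 and 105 CPM (log2 change 2.46, SE 0.13).

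Zmynd8, a reader of acetylated and methylated histones, lost a 156-base coding block and gained use of a 75-base block, both multiples of 3. They are shown in the same way because both labels changed them:
Zmynd8-203 156 bases, chr2:165807519-165807674, minus strand: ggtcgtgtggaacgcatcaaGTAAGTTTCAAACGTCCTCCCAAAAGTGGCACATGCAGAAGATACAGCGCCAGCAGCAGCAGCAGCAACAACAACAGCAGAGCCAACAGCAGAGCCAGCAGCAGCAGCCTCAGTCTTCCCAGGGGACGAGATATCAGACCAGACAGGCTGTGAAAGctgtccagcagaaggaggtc
Zmynd8-205 75 bases, chr2:165846165-165846239, minus strand: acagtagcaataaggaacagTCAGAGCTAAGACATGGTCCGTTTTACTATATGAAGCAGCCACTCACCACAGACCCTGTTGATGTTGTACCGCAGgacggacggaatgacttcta
The 156-base block was held by 59.1, 51.5 and 56.6% of spanning counts at day 0 and 1.68, 1.03 and 0.905% at day 7, and the 75-base block by 10.7, 10.7 and 7.82% and 27.4, 22.0 and 24.9%. In WT the first went from 62.2% to 1.31% on average, and the second from 17.0, 4.92 and 8.19% to 30.5, 23.7 and 29.7%. Neither block overlapped between days in either label. Epb41l3, a membrane skeleton protein, lost a 123-base block, from 92.4, 97.7 and 100% to 6.45, 5.18 and 2.83%; its switch was called in 3 of 9 settings, and that of Zmynd8 in all 9. By contrast Ambra1, an autophagy regulator, gained a 273-base block in knockout (2.98, 1.15 and 1.44% to 81.6, 79.8 and 87.3%), while WT libraries of day 7 had 2.28, 52.6 and 38.6%, and its switch was called in 4 of 9 settings. The change of neither Ambra1 form differed between the labels by edgeR on transcripts (adjusted p = 0.382 for the lost form, Ambra1-203). These block values were worked out after the switches were seen and carry no test.

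**Figure D5:**
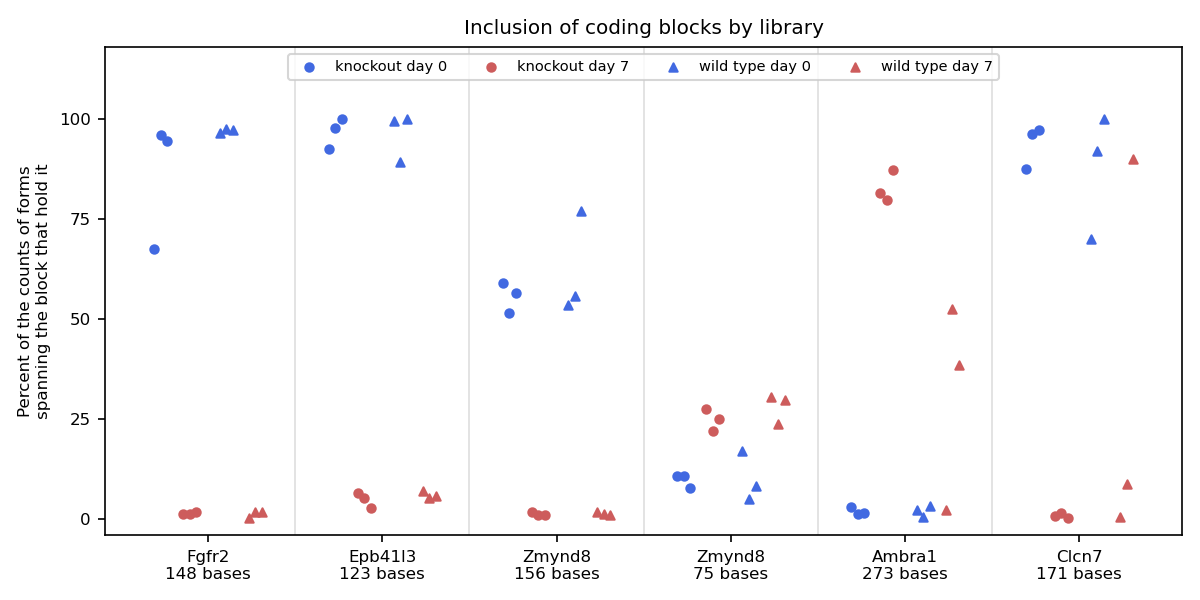
Points give, per library, the percent of counts of forms spanning a coding block that hold it, for knockout (circles) and wild type (triangles) at day 0 and day 7. The Fgfr2 exon goes from a mean of 97.1 to 1.20% in WT and in the same direction in knockout, and Ambra1 and Clcn7 show WT libraries of day 7 spread from 2.28 to 52.6% and from 0.502 to 90.1%.

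Regulators of splicing changed in both directions, 17 of 41 up and 13 down (median 0.32), near the shares of all genes. Esrp1 and Esrp2, epithelial factors known to favour the IIIb exon, were chosen after their values were seen and both rose, Esrp2 by 0.34 (adjusted p = 0.0425). Esrp1 had 12.2, 7.68 and 9.66 CPM at day 0 and 17.2, 19.7 and 18.8 CPM at day 7 (log2 change 0.91, SE 0.20). Mbnl2, a muscleblind protein of differentiated tissue, had 1.88, 4.32 and 1.11 CPM at day 0 and 15.7, 17.6 and 13.6 CPM at day 7 (2.70, SE 0.46, or 3.4 without day 0 replicate 2). Khdrbs1, the adaptor SAM68, had 92.4, 75.5 and 72.0 CPM at day 0 and 278, 272 and 280 CPM at day 7 (1.79, SE 0.10). Nova2, a neuronal factor, had 23.3, 31.0 and 15.4 CPM at day 0 and 1.95, 2.36 and 3.0 CPM at day 7 (-3.25, SE 0.38). Elavl3, above, fell too, and Ptbp1, the repressor of neuronal exons, did not pass (log2 change -0.18).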

How the data were processed

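Polyadenylated RNA of 12 libraries was sequenced. The authors deposited whole-number expected counts per gene and per transcript; per the submitters' processing notes the tools included StringTie 1.3.3 and the aligner HISAT2 2.1.0, after read trimming with Trimmomatic, and the build was mm10. Strand handling is not given in the sources used here. Estimated counts are shared out between overlapping forms, which makes shares of close forms uncertain. Names and coordinates came from GENCODE M21 (GRCm38), which matched 55227 of 55487 gene IDs, and promoters from RefSeq.

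Genes were tested with edgeR 4.0.16 in R 4.3.3 (filterByExpr, TMM factors, quasi-likelihood test, 1 coefficient for each of 4 groups over 12 libraries), adjusted by Benjamini-Hochberg over all genes tested. CPM uses TMM-scaled library sizes. Transcript shares were tested with diffSpliceDGE on the 6 knockout libraries. On simulated data this test alone called too many genes, and the switch rule did not. The simulation drew the counts of each transcript independently, so it cannot show errors from sharing out counts between overlapping forms. Alternatives were DESeq2 1.42.0, limma 3.58.1, other scaling and filters, a replicate block, and left-out libraries. The main fits did not use the replicate numbers as pairs. Over all genes tested, same-numbered libraries did not deviate together (correlations -0.0136, -0.0105 and -0.00343), which cannot exclude pairing in some of the genes.

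Named genes were the 12 largest rises and falls, the 12 largest among genes at or under 3 counts on 1 day, and in each list up to 6 by size, 3 by level and 4 against its direction. For the difference from WT they were the 8 smallest p-values. Members and lists were chosen with earlier results of these data known. Some items of these lists are not reported here.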

Additional observations from a re-analysis of the deposited data

Results flagged for a closer look

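For 5 genes the change over 7 days differed between the labels by the test of the difference itself, and each is given as knockout minus WT on the log2 scale. Esrrb differed by -2.92 (SE 0.32) and Epha4 by -2.05 (SE 0.24). For Morc1 the difference was -3.99 (SE 0.46), from 88 counts in WT at day 7. Aoah and Ankrd45 had fitted differences of -6.20 and -6.65, which have no fixed size because neither gene had a count in knockout at day 7. Each was computed by edgeR over 6 knockout and 6 WT libraries.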

How the results depend on the processing

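In each of the 43 lists the count of genes in its commoner direction stayed within 1.5 times under all 12 settings of the gene fit. Counts in the other direction were not followed. Of 391 named genes followed, 374 kept direction and call, 16 lost the call under at least 1 setting, 1 gained it (Epha4) and none reversed. The number of genes differing between labels was 145 by DESeq2, 8 without a filter on low counts, 0 with the replicate block (847 genes at an unadjusted p under 0.05 in edgeR), and 0 to 15 with 1 library left out. DESeq2 called 15270 transcripts. Genes with a transcript of changed share numbered 229 with the replicate block and 1335 by limma. Switches numbered 12 with the replicate block, 205 by limma and 12 to 28 with 1 library left out. Of the 22 switches, 9 were called in all 9 settings: Ankrd17, Fgfr1, Fnbp1l, Igsf9, Ipo4, Jade1, Sparc, Ttc17 and Zmynd8. Without mitochondrially encoded genes the change in share of counts was -1.28 points for naive genes and 1.20 points for smooth muscle genes. There the same counts were divided by a smaller total. Naive genes took 1.56% at day 0 and 0.283% at day 7 of that total, against 1.49% and 0.274% of all counts. Smooth muscle genes took 0.160% and 1.36%, against 0.153% and 1.32%. The cause of the other differences between settings was not tested. Leaving out both libraries of replicate 2 was added after the data were seen. Genes with few counts, such as those at the floor on 1 day, have no fixed fold change.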
